A study of Mus musculus with 6 samples.

Results

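The 9 genes described here encode the slow and fast forms of the proteins that switch contraction on and off in skeletal muscle. They are the troponin I genes Tnni1 (slow) and Tnni2 (fast), the troponin T genes Tnnt1 (slow) and Tnnt3 (fast), the troponin C genes Tnnc1 (slow) and Tnnc2 (fast), and the tropomyosin genes Tpm3 (slow), Tpm1 (fast) and Tpm2 (both kinds of fiber). They were picked by symbol, for what they are known to encode, and are 9 of the 24411 genes in the count table. Earlier results of these data were known when they were picked. Tropomyosin lies along the actin filament and, at rest, covers the sites where myosin binds. When calcium enters the fiber's cytoplasm it binds troponin C, which loosens the hold of troponin I on actin, while troponin T anchors the complex to tropomyosin. Slow and fast fibers draw the 3 troponin subunits from separate genes, and the soleus, a postural muscle of the lower leg, contains both kinds of fiber.

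The RNA came from the soleus of 6 male C57BL/6 mice, each caged alone with a vertical wheel for voluntary running (VWR). The 3 LSD1-mKO mice carried Lsd1 (Kdm1a) flox/flox alleles and ACTA1-CreERT2, a Cre that tamoxifen activates and that the human ACTA1 promoter drives. According to the paper, this Cre acts in differentiating and differentiated muscle cells. The paper adds that the LSD1 left afterwards probably comes from hematopoietic and vascular cells. The 3 WT mice were Lsd1-floxed without CreERT2. Both groups received tamoxifen at 75 mg/kg on 5 days, after 3 days of getting used to the wheel, and ran for a further 30 days. All mice were 8 weeks old at the start and had the wheel for 38 days. The series has no sedentary mice, so each comparison below is between genotypes among runners. Each mouse gave 1 library of poly(A) RNA, sequenced from a single end with reads of 75 bases.

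The WT libraries held 8940206, 10366443 and 10989846 estimated counts and the LSD1-mKO libraries 13563881, 13798059 and 10984664. The smallest count of any of the 9 genes in any mouse was 15315, for Tnni1 in WT mouse 1. Levels are given as counts per 1000000 after TMM scaling (CPM) where the same gene is compared between mice. They are given as transcripts per 1000000 (TPM), which divides by transcript length, where different genes are compared. Positions are on the mouse build GRCm38. Kdm1a (chromosome 4, 136550540 to 136602723), the gene that was deleted, measured 40.5, 38.2 and 33.6 CPM in WT mice 1 to 3 and 14.6, 16.6 and 16.6 CPM in LSD1-mKO mice 1 to 3. The groups did not overlap, and the log2 fold change was -1.23 (SE 0.11, n = 3 per group, adjusted p = 0.0160, edgeR, Benjamini-Hochberg). Leaving out 1 mouse kept it between -1.30 and -1.17, but the call was lost (adjusted p from 0.111 to 0.209 in edgeR) in 4 of 6 such fits, those without WT mouse 2 or any 1 of the LSD1-mKO mice. The call was also lost with a replicate block (adjusted p = 0.299, edgeR). Of the myosin heavy chain TPM of Myh7, Myh2, Myh1 and Myh4, slow Myh7 took 29.6 to 43.4%, fast type IIA Myh2 45.5 to 57.0% and type IIB Myh4 at most 0.0884%, so the defining myosins of a mixed soleus were present in every mouse.

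All 9 genes were among the 32 most abundant of the soleus by mean TPM over the longest protein-coding transcript, and none of them separated the genotypes. LSD1-mKO mouse 2 had the highest CPM of all 4 slow genes, Tnni1, Tnnt1, Tnnc1 and Tpm3. WT mouse 1 had the highest CPM of all 4 fast genes, Tnni2, Tnnt3, Tnnc2 and Tpm1, and of Tpm2. The scale matters for this mouse: in TPM, which carry no TMM scaling, LSD1-mKO mouse 1 was the highest for Tnnt3, Tnnc2 and Tpm1 (22912, 18747 and 5474 TPM), while LSD1-mKO mouse 2 was again the highest for all 4 slow genes. WT mouse 2 had the lowest CPM of 6 of the 9 genes. The WT and LSD1-mKO values overlapped for 9 of 9 genes, while they did not overlap for 12.7% of all 12828 genes tested. At an adjusted p under 0.05 in edgeR, 0 of the 9 genes were called, against 0.0156% of all genes tested, which is 2 genes, Kdm1a and Esr1. The paper's name for the Cre transgene of the LSD1-mKO mice also holds Esr1, and reads of that transgene and of the gene were not told apart. At an unadjusted p under 0.05 there were 0 of the 9 genes and 821 of all genes tested, and DESeq2 and limma voom also called 0 of the 9. In RNA from whole muscle, fewer fibers of a kind and less RNA per fiber cannot be told apart.

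**Figure D1:**
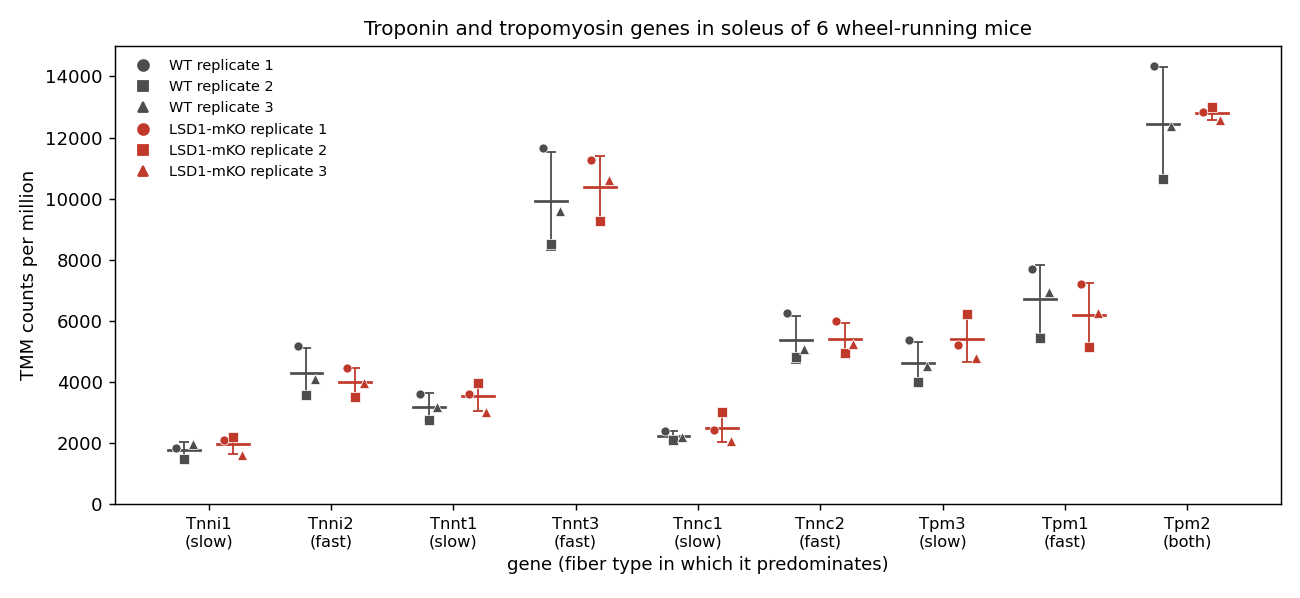
Level of each of the 9 genes in each mouse, in TMM-scaled counts per 1000000 (vertical axis), for 3 WT and 3 LSD1-mKO mice; points are mice, and bars are the mean and SD of each group. For each gene the points of the groups overlap, and LSD1-mKO mouse 2 is the highest point for Tnni1, Tnnt1, Tnnc1 and Tpm3.

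Troponin I is the subunit that blocks the interaction of actin with myosin when calcium is low. Its slow form, Tnni1 (chromosome 1, 135779434 to 135810989), measured 1846, 1466 and 1976 CPM in WT mice 1 to 3 and 2106, 2205 and 1597 CPM in LSD1-mKO mice 1 to 3. The groups overlapped: LSD1-mKO mice 1 and 2 were above all WT mice, but LSD1-mKO mouse 3 was below WT mice 1 and 3. The means of Tnni1 were 1763 ± 265 CPM for WT and 1969 ± 327 CPM for LSD1-mKO (± SD, n = 3 each), and the log2 fold change was 0.16 (95% interval -0.22 to 0.54, adjusted p = 0.879, edgeR, Benjamini-Hochberg). The fast form, Tnni2 (chromosome 7, 142441808 to 142444410), measured 5182, 3578 and 4103 CPM in WT and 4454, 3506 and 3979 CPM in LSD1-mKO. WT mouse 1 stood highest, LSD1-mKO mouse 2 lowest, and the groups overlapped. The means of Tnni2 were 4288 ± 818 CPM for WT and 3979.7 ± 474 CPM for LSD1-mKO (± SD, n = 3 each), and the log2 fold change was -0.11 (95% interval -0.50 to 0.29, adjusted p = 0.925). Without WT mouse 1 the sign of the Tnni2 difference turned, to 0.054.

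Troponin T holds the troponin complex on tropomyosin. Slow Tnnt1 (chromosome 7, 4504570 to 4516382) measured 3616, 2737 and 3188 CPM in WT and 3615, 3955 and 3018 CPM in LSD1-mKO. The groups overlapped, with WT mouse 1 and LSD1-mKO mouse 1 within 1 CPM of each other and WT mouse 2 the lowest. The group means of Tnnt1 were 3180.2 ± 439.7 CPM for WT and 3529 ± 475 CPM for LSD1-mKO (± SD, n = 3 each), and the log2 fold change was 0.15 (95% interval -0.21 to 0.51, adjusted p = 0.880, edgeR, Benjamini-Hochberg). Fast Tnnt3 (chromosome 7, 142498836 to 142516009) measured 11669.7, 8512 and 9605 CPM in WT and 11271, 9252 and 10604 CPM in LSD1-mKO. All 3 LSD1-mKO values lay between the lowest and the highest WT value. The group means of Tnnt3 were 9929 ± 1604 CPM for WT and 10376 ± 1029 CPM for LSD1-mKO (± SD, n = 3 each), and the log2 fold change was 0.06 (95% interval -0.34 to 0.47, adjusted p = 0.955). It turned to -0.036 without WT mouse 2, which had the lowest Tnnt3.

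Troponin C is the calcium sensor of the complex, and its slow form is also the form of the heart. Tnnc1 (chromosome 14, 31208312 to 31211729) measured 2396, 2102 and 2181 CPM in WT and 2436, 3001 and 2077 CPM in LSD1-mKO. LSD1-mKO mouse 2 stood above the other 5 mice, while LSD1-mKO mouse 3 was the lowest of all, so the groups overlapped. Tnnc1 averaged 2226 ± 152 CPM for WT and 2504 ± 466 CPM for LSD1-mKO (± SD, n = 3 each), and its log2 fold change was 0.17 (95% interval -0.18 to 0.52, adjusted p = 0.865, edgeR, Benjamini-Hochberg). Fast Tnnc2 (chromosome 2, 164777161 to 164779967) measured 6257, 4804 and 5079 CPM in WT and 5983, 4937 and 5253 CPM in LSD1-mKO. Again all 3 LSD1-mKO values lay inside the WT range. Tnnc2 averaged 5380.0 ± 772 CPM for WT and 5391 ± 537 CPM for LSD1-mKO (± SD, n = 3 each), and its log2 fold change of 0.0030 (95% interval -0.36 to 0.36, adjusted p = 0.997) was the nearest to 0 of the 9 genes. The sign of so small a difference was not fixed: it was -0.072 without WT mouse 2, -0.037 without WT mouse 3, -0.077 without LSD1-mKO mouse 1, and also below 0 with the upper quartile or the library size as the scaling.

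Tropomyosin is the strand on which troponin sits, and in fast fibers Tpm1 and in slow fibers Tpm3 supplies the alpha chain. Tpm3 (chromosome 3, 90072649 to 90100902) measured 5363, 4006 and 4524 CPM in WT and 5204, 6238 and 4782 CPM in LSD1-mKO. WT mouse 1 was above LSD1-mKO mice 1 and 3, so the groups overlapped, and WT mice 2 and 3 were below all 3 LSD1-mKO mice. Tpm3 averaged 4631 ± 685 CPM for WT and 5408 ± 749 CPM for LSD1-mKO (± SD, n = 3 each), and its log2 fold change of 0.22 (95% interval -0.16 to 0.61, adjusted p = 0.824, edgeR, Benjamini-Hochberg) was the highest of the 9 genes. Tpm1 (chromosome 9, 67022590 to 67049406) measured 7688, 5451 and 6955 CPM in WT and 7212, 5143 and 6245 CPM in LSD1-mKO. LSD1-mKO mouse 2, the highest for Tpm3, was the lowest for Tpm1, and the groups overlapped. Tpm1 averaged 6698 ± 1140.2 CPM for WT and 6200.0 ± 1035 CPM for LSD1-mKO (± SD, n = 3 each), and its log2 fold change was -0.11 (95% interval -0.54 to 0.32, adjusted p = 0.930). Without LSD1-mKO mouse 2 the Tpm1 value was 0.013, and without WT mouse 1 it was 0.0013.

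The beta chain, Tpm2 (chromosome 4, 43514711 to 43523765), pairs with either alpha chain in slow and fast fibers. It measured 14354, 10646 and 12370.4 CPM in WT and 12846, 12994 and 12561 CPM in LSD1-mKO. The 3 LSD1-mKO mice were closely grouped inside the wider WT range. Tpm2 averaged 12457 ± 1855 CPM for WT and 12800.2 ± 220.2 CPM for LSD1-mKO (± SD, n = 3 each), and its log2 fold change was 0.04 (95% interval -0.35 to 0.43, adjusted p = 0.972, edgeR, Benjamini-Hochberg). Without WT mouse 2 it was -0.061.

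Set side by side, the fitted log2 fold changes of the 4 slow genes were all above 0, from 0.15 for Tnnt1 to 0.22 for Tpm3, with a median of 0.17. Those of the 4 fast genes ran from -0.11 to 0.06 with a median of -0.05, but without WT mouse 1 all 4 were above 0 (median 0.091) and without WT mouse 2 all 4 were below (median -0.15). Over all 9 genes, 7 were above 0 and 2 below, counting Tnnc2 as above, and the median was 0.06. All genes tested had a median of -0.02, with 5801 above 0 and 7027 below. The 4 slow genes stayed above 0 in each of 14 alternative settings per gene, which included leaving out each mouse in turn, but their size rested on single mice. With 1 mouse left out it ran from 0.045 to 0.29 for Tnni1, 0.054 to 0.25 for Tnnt1, 0.027 to 0.29 for Tnnc1 and 0.12 to 0.34 for Tpm3, with the lowest values without LSD1-mKO mouse 2 for Tnnc1 and Tpm3 and without WT mouse 2 for Tnni1 and Tnnt1. The intervals leave room for a change in either direction: as a fold of WT, the widest upper bound was 1.52 for Tpm3 and the lowest lower bound was 0.686 for Tpm1. All 9 intervals crossed 0.

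**Figure D2:**
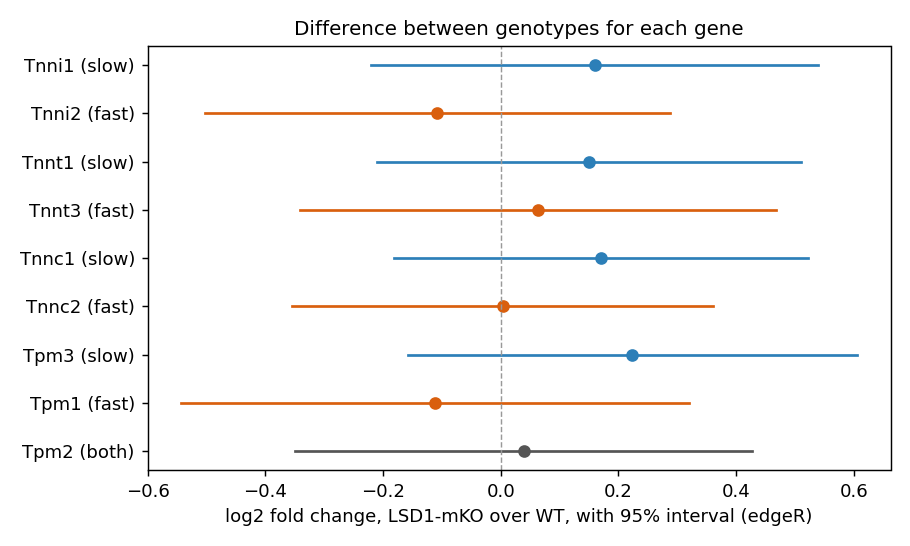
Fitted log2 fold change of each of the 9 genes, LSD1-mKO relative to WT (horizontal axis, 0 marks no difference), with the 95% interval from edgeR as a line, 3 mice per group. All 9 intervals cross 0; the slow genes lie between 0.15 and 0.22 and the fast genes between -0.11 and 0.06.

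The slow to fast ratio of each subunit was taken within each mouse from TPM, so that the scaling between libraries cancels. For troponin I, the Tnni1 to Tnni2 ratio was 0.238, 0.274 and 0.322 in WT mice 1 to 3 and 0.316, 0.420 and 0.268 in LSD1-mKO mice 1 to 3. The groups overlapped, with WT mouse 1 the lowest and LSD1-mKO mouse 2 the highest. The mean ratio was 0.278 ± 0.0420 for WT and 0.335 ± 0.0777 for LSD1-mKO (± SD, n = 3 each), and the log2 difference was 0.25 (exact permutation test, 2-sided, p = 0.5). For troponin T, the Tnnt1 to Tnnt3 ratio was 0.316, 0.328 and 0.338 in WT and 0.327, 0.436 and 0.290 in LSD1-mKO. The 3 WT mice were nearly alike, and of the LSD1-mKO mice number 1 lay among them, number 2 above and number 3 below. The mean ratio of the troponin T genes was 0.327 ± 0.0112 for WT and 0.351 ± 0.0757 for LSD1-mKO (± SD, n = 3 each), a log2 difference of 0.08 (exact permutation test, 2-sided, p = 0.9).

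For troponin C, the Tnnc1 to Tnnc2 ratio was 0.372, 0.425 and 0.417 in WT and 0.395, 0.590 and 0.384 in LSD1-mKO. LSD1-mKO mice 1 and 3 lay within the WT range and LSD1-mKO mouse 2 above it. The mean ratio of the troponin C genes was 0.404 ± 0.0287 for WT and 0.456 ± 0.116 for LSD1-mKO (± SD, n = 3 each), a log2 difference of 0.15 (exact permutation test, 2-sided, p = 0.8). For the alpha tropomyosins, the Tpm3 to Tpm1 ratio was 0.903, 0.951 and 0.842 in WT and 0.934, 1.57 and 0.991 in LSD1-mKO. LSD1-mKO mouse 1 was below WT mouse 2, so the groups overlapped, and LSD1-mKO mouse 2 had more Tpm3 than Tpm1 per length, unlike the other 5 mice. The mean ratio of the tropomyosins was 0.899 ± 0.0547 for WT and 1.16 ± 0.352 for LSD1-mKO (± SD, n = 3 each), a log2 difference of 0.34 (exact permutation test, 2-sided, p = 0.2). The smallest p that 3 mice against 3 allow is 0.1, and after Benjamini-Hochberg adjustment over the 4 ratios the exact permutation p-values were 0.9, 0.9, 0.9 and 0.8.

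A single animal, LSD1-mKO mouse 2, had the highest ratio in 4 of 4 pairs. Its ratio was 1.31 times that of the next mouse for troponin I, 1.29 times for troponin T, 1.39 times for troponin C and 1.58 times for Tpm3 to Tpm1. Without it the log2 difference between the genotypes was 0.078 for troponin I, -0.087 for troponin T, -0.052 for troponin C and 0.10 for Tpm3 to Tpm1, so the sign turned for troponins T and C. In this mouse the TPM of the 4 slow numerators were at their highest, and those of the fast denominators Tnni2, Tnnc2 and Tpm1, though not Tnnt3, at their lowest of the 6 mice.

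**Figure D3:**
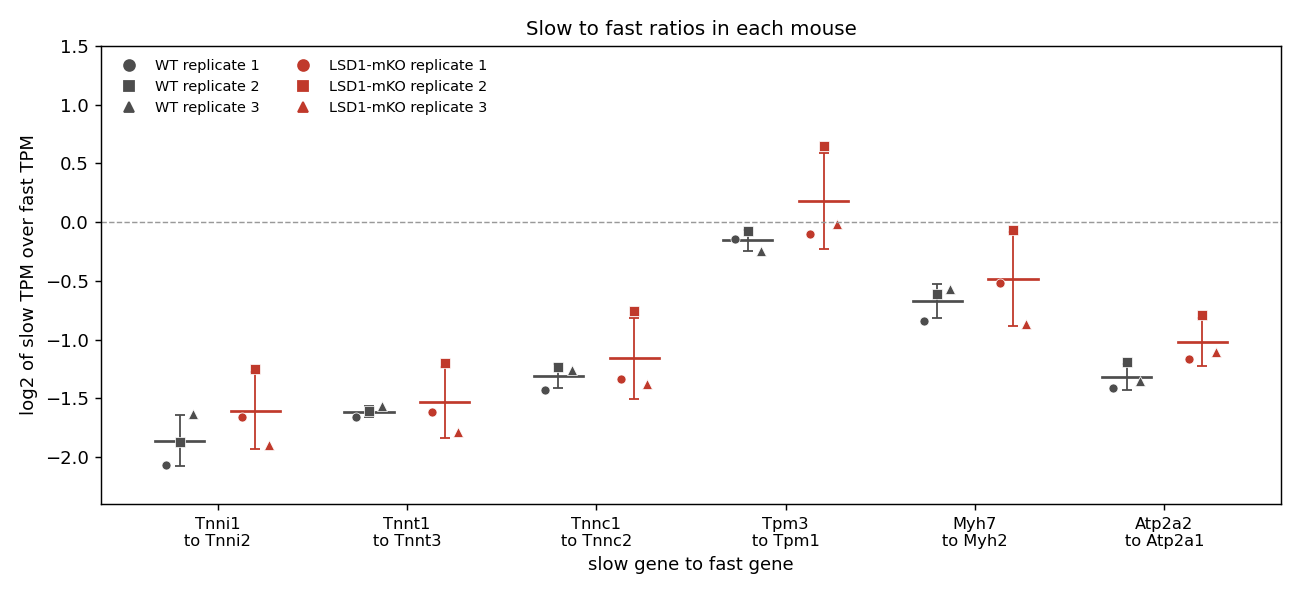
Slow to fast ratio in each mouse on a log2 scale (vertical axis), from TPM, for the 4 pairs of troponin and tropomyosin genes and, beside them, Myh7 to Myh2 and Atp2a2 to Atp2a1; points are mice, and bars are the mean and SD of 3 mice. LSD1-mKO mouse 2 is the highest point for each ratio, and the groups are apart only for Atp2a2 to Atp2a1.

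The same ratio was taken for other proteins that come in slow and fast forms. Myh7 to Myh2, the slow and fast type IIA myosin heavy chains, gave 0.558, 0.656 and 0.673 in WT and 0.699, 0.954 and 0.549 in LSD1-mKO, again highest in LSD1-mKO mouse 2 and overlapping. Atp2a2 to Atp2a1, the slow and fast calcium pumps that refill the sarcoplasmic reticulum, gave 0.376, 0.437 and 0.392 in WT and 0.445, 0.578 and 0.466 in LSD1-mKO. Here every LSD1-mKO mouse was above every WT mouse, unlike in the 4 troponin and tropomyosin pairs, but the difference between these patterns was not tested.

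Per transcript length, the fast troponins Tnnt3 and Tnnc2 were the most abundant of the 9 genes. Over all 6 mice the mean levels were 20763 ± 1741 TPM (SD, n = 6) for Tnnt3, the third most abundant of all genes, 16986 ± 1237 TPM for Tnnc2, 12818 ± 633 TPM for Tpm2 and 11868 ± 1293 TPM for Tnni2. The slow troponins Tnnc1 and Tnnt1 followed at 7256 ± 1011 and 6995 ± 784 TPM, then Tpm3 at 4963 ± 662 and Tpm1 at 4924 ± 632 TPM, and Tnni1 was the lowest at 3586 ± 521 TPM, in place 32 among all genes. Between neighbors in this order, the ranges over the 6 mice did not overlap from Tnnt3 to Tnnc2, from Tnnc2 to Tpm2 and from Tnni2 to Tnnc1. They overlapped between Tpm2 and Tnni2, Tnnc1 and Tnnt1, Tnnt1 and Tpm3, Tpm3 and Tpm1, and Tpm1 and Tnni1. Within a mouse, Tpm2 was above Tnni2 in 5 of 6, Tnnc1 above Tnnt1 in 4, Tnnt1 above Tpm3 in 6, Tpm3 above Tpm1 in 1 and Tpm1 above Tnni1 in 5. The place of Tpm3 before Tpm1 rests on LSD1-mKO mouse 2, without which the means were 4719.6 TPM for Tpm3 and 5121 TPM for Tpm1. The order also depends on the length used: with the union of all exons in place of the longest protein-coding transcript, Tnnc2 (20966 TPM) came before Tnnt3 (19964 TPM) and Tpm1 (3095 TPM) before Tpm3 (2569.6 TPM), and Tnni1, still the lowest, had 1617 TPM. The places among all genes and the sums and shares that follow were taken with the longest protein-coding transcript. Together the 9 genes made up 8.27 to 9.68% of all TPM in a mouse.

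Summed by subunit, troponin I came to 14114 to 17074 TPM per mouse, troponin T to 24912 to 30400.3 TPM and troponin C to 23007 to 26157 TPM. The slow gene supplied a minority of each. Tnni1 made up 19.2, 21.5 and 24.3% of troponin I TPM in WT and 24.0, 29.6 and 21.1% in LSD1-mKO. For Tnnt1 the share of troponin T TPM was 24.0, 24.7 and 25.3% in WT and 24.6, 30.3 and 22.5% in LSD1-mKO. For Tnnc1 the share of troponin C TPM was 27.1, 29.8 and 29.4% in WT and 28.3, 37.1 and 27.7% in LSD1-mKO. All 3 shares overlapped between the groups and were highest in LSD1-mKO mouse 2. The 3 slow troponin genes together came to 17052, 16115 and 17468 TPM in WT and 18915, 21707 and 15769 TPM in LSD1-mKO. The 3 fast ones came to 54169, 46170.2 and 48442 TPM in WT and 54379.6, 44662 and 49876 TPM in LSD1-mKO, again with overlap in both sums.

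Among the tropomyosins Tpm2 held the steadiest share, from 55.0 to 57.3% of the summed TPM of Tpm1, Tpm2 and Tpm3. Tpm1 held 22.8, 22.0 and 23.8% in WT and 23.3, 16.9 and 21.4% in LSD1-mKO, with overlap. Tpm3 held 20.6, 20.9 and 20.02% in WT and 21.7, 26.5 and 21.3% in LSD1-mKO, a mean ± SD of 20.5 ± 0.455% against 23.2 ± 2.90% (n = 3 each). Every LSD1-mKO mouse was above every WT mouse for this share, with LSD1-mKO mouse 2 far above the rest and the other LSD1-mKO mice just above WT. The groups were also apart with exon unions as the lengths (12.3 to 12.8% in WT and 12.95 to 16.3% in LSD1-mKO). The difference of the means was 2.64 percentage points, and 0.973 without LSD1-mKO mouse 2. Taken as the ratio of Tpm3 to the sum of Tpm1 and Tpm2, which orders the mice in the same way, the log2 difference was 0.22 (exact permutation test, 2-sided, p = 0.1, the smallest possible). Groups that are apart always give this p with 3 mice each, so it adds nothing to their being apart. The share was chosen after the data were seen, and this p was not among those adjusted over the 4 ratios. Of all genes tested, 12.7% had groups apart in CPM. Counts are per gene, so muscle and non-muscle transcripts of Tpm1 and Tpm3 are added together in these values.

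Troponin and tropomyosin genes of other tissues were low in the same libraries. Tnnt2, the heart form of troponin T, measured 11.5, 10.8 and 9.42 CPM in WT and 11.4, 11.2 and 5.68 CPM in LSD1-mKO, with overlap. Tnni3, the heart form of troponin I, had 5 to 15 counts per mouse and was below the level for testing. Tpm4, a tropomyosin of non-muscle cells, measured 65.2, 95.4 and 91.2 CPM in WT and 96.2, 67.7 and 92.8 CPM in LSD1-mKO, with overlap. Tpm3-rs7, a gene with a sequence very like that of Tpm3, is not listed in the count table.

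Several of the 9 genes lie near another troponin gene in the mouse genome (GRCm38, GENCODE vM21). Fast Tnni2 and fast Tnnt3 are 54425 bases apart on chromosome 7. Slow Tnni1 lies 25364 bases from the heart gene Tnnt2 on chromosome 1, and slow Tnnt1 lies 1922 bases from the heart gene Tnni3 on chromosome 7. In the soleus only the skeletal muscle gene of each of these mixed pairs was abundant. Tnnc1, Tnnc2, Tpm1, Tpm2 and Tpm3 each lie on a chromosome of their own among the 9 genes.

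Reads of 75 bases can be assigned to these genes to different degrees. For 7 of the 9 genes, 0 of the 75-base stretches of the transcripts occur in another gene's transcripts. For Tpm3, 53.3% of the stretches of its longest transcript (1151 of 2159) and 19.1% over all its transcripts also occur in another gene, foremost Tpm3-rs7. For Tnnc2, 40.6% of the stretches of its longest transcript (254 of 626) also occur, on the opposite strand, in the overlapping gene Ube2c, which had 3 to 7 counts per mouse. Whether the counting used the strand is not given in the sources used here.

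The genes that varied across the 6 mice most like the slow and the fast troponins were found from the Pearson correlation of log2 CPM, over 3204 genes with a mean of at least 50 CPM. It is a description over 6 libraries that also differ in depth and genotype. The genes named are the highest of those 3204, and the best of so many genes over so few mice have a high r by selection. How high r would run for unrelated genes was not tested. The mean of Tnni1, Tnnt1 and Tnnc1 was most closely followed by Thrap3 (r = 0.987), Hdac2 (0.963), Schip1 (0.957), Eif2a (0.941) and Rheb (0.936). Tpm3, which is not part of that mean, had r = 0.918 with it, while fast Tnni2, Tnnt3, Tnnc2 and Tpm1 had r = 0.12, 0.264, 0.285 and 0.029. The mean of Tnni2, Tnnt3 and Tnnc2 was most closely followed by Cacna1s (r = 0.998), Cwc15 (0.997), Abr (0.997), Timp4 (0.986) and Trim72 (0.986). Cacna1s encodes the pore of the calcium channel that senses voltage in muscle fibers. Tpm1 had r = 0.899 with that fast mean, whereas slow Tnni1, Tnnt1, Tnnc1 and Tpm3 had r = 0.244, 0.398, -0.018 and 0.287. Tpm2, the chain of both fiber kinds, had r = 0.645 with the slow and 0.776 with the fast mean.

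The 250 bases before a RefSeq transcript start are shown for the slow genes Tnni1, Tnnt1, Tnnc1 and Tpm3 and, for comparison, the fast genes Tnnc2 and Tpm1. Whether these bases have a part in how the genes varied from mouse to mouse was not tested. The sequences are those of RefSeq on GRCm38.p6, 5′ to 3′ on the gene's strand, and 7 of the 9 genes had entries, without Tnni2 and Tnnt3. The positions are chr1:135799171-135799420 (plus strand) for Tnni1, chr7:4515976-4516225 (minus strand) for Tnnt1, chr14:31208062-31208311 (plus strand) for Tnnc1, chr3:90072401-90072650 (plus strand) for Tpm3, chr2:164779735-164779984 (minus strand) for Tnnc2 and chr9:67049214-67049463 (minus strand) for Tpm1. The RefSeq start need not be that of the GENCODE gene given above: the windows of Tnni1 and Tnnt1 lie inside the GENCODE span of the gene, and those of Tnnc2 and Tpm1 mostly so. Tnni1 and Tpm3 have a further entry each, not shown; that of Tpm3, at chr3:90079271-90079520, holds neither TCAAGGTCA nor AAGGTCA. Capitals mark CANNTG (the E-box of myogenic factors), CATTCC (MCAT, the TEAD element) and TCAAGGTCA or the AAGGTCA inside it (the element of estrogen-related receptors such as Esrrg), each searched on both strands.
Tnni1: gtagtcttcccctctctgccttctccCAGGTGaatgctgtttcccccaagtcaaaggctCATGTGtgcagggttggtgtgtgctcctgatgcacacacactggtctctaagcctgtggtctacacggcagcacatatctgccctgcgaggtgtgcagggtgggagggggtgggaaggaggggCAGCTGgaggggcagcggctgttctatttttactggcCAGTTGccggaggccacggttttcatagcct
Tnnt1: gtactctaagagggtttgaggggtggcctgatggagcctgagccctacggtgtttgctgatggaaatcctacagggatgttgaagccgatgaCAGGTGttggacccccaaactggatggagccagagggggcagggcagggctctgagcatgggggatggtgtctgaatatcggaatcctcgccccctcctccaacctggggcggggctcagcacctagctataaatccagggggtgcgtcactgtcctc
Tnnc1: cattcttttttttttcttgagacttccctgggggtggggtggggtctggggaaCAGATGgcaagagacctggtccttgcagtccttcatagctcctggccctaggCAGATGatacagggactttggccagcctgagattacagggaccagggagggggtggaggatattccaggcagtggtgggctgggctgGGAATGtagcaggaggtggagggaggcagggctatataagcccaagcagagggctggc
Tpm3: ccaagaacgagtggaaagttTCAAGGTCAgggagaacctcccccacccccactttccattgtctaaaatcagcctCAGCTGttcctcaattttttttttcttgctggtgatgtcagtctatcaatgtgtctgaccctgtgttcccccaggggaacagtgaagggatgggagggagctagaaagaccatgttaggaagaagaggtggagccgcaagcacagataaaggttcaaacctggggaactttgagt
Tnnc2: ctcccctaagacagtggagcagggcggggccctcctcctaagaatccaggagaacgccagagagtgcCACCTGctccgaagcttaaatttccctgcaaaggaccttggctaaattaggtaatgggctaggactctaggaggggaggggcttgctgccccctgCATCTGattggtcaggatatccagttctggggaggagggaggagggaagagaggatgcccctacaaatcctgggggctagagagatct
Tpm1: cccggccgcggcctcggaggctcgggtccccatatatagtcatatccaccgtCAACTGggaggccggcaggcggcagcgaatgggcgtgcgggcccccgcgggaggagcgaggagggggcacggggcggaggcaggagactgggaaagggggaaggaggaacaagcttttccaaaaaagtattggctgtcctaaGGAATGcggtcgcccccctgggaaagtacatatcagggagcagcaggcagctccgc

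Each of these 6 windows held at least 1 CANNTG, as did 66.2% of 32851 mouse promoters of the same length. Tnni1 had 4, starting 224, 191, 68 and 31 bases before the RefSeq start. CATTCC occurred on the opposite strand, read as GGAATG, 58 bases before the RefSeq start of Tnnc1 and 56 bases before that of Tpm1, and 12.6% of all promoters held it. TCAAGGTCA occurred 230 bases before the RefSeq start of Tpm3 and in none of the other windows shown, against 0.387% of all promoters, and AAGGTCA occurred in 4.08%. The MEF2 consensus, searched by name, was in 0 of the 9 entries of these genes and in 2.92% of all promoters. A match is a description of the letters in the window and not a bound site. Esrrg itself measured 147, 125 and 116 CPM in WT and 267, 208 and 282 CPM in LSD1-mKO, where the groups did not overlap, with a log2 fold change of 0.96 (SE 0.14, adjusted p = 0.162, edgeR, Benjamini-Hochberg). It missed the threshold there and in limma voom (adjusted p = 0.192), but passed it in DESeq2 (adjusted p = 1.79e-06) and in edgeR with no filter on low counts (adjusted p = 0.0111), and over all alternatives its adjusted p ranged from 1.79e-06 to 0.705.

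The other proteins of the thin filament were looked at beside the troponins and tropomyosins. Of 20 tested genes of 21 listed, 14 were above 0 and 6 below, 0 were called by edgeR, DESeq2 or limma voom, 3 had an unadjusted p under 0.05 (821 of all 12828 genes tested did), and the median log2 fold change was 0.08, against 0.06 for the 9 genes. Without overlap between the groups were 3 of the 20 (15%, beside 12.7% of all genes tested), Actc1, Capza1 and Cap2. Acta1, the skeletal muscle actin to which the troponins and tropomyosins bind, was the most abundant, at 40894, 32177 and 38482 CPM in WT and 37681, 33667 and 33973 CPM in LSD1-mKO, and overlapped. The highest log2 fold change was 0.40 for Xirp1, an actin-binding repair protein, which had 0.25 without LSD1-mKO mouse 1. The lowest was -0.20 for Lmod2, which nucleates and lengthens thin filaments and had 0.079 without WT mouse 1. With 1 mouse left out, 11 to 15 of the 20 were above 0 and their median ran from 0.030 to 0.11.

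Other genes that mark slow and fast fibers had fold changes of both signs. Of 15 slow fiber genes outside the 9, 7 were above 0 and 8 below (median -0.01), and the groups were apart for 1 of them, Sln. Among them the most abundant, the oxygen store Mb, had a log2 fold change of -0.01 (0.13 without WT mouse 1 and 0.027 without LSD1-mKO mouse 2), the highest was 0.31 for Atp2a2 and the lowest -0.48 for Sln, a small inhibitor of the calcium pump. Of 16 fast fiber genes, 5 were above 0 and 11 below (median -0.04), and 0 had groups apart. The most abundant was the light chain Mylpf (-0.18, and 0.0050 without WT mouse 3), and the highest was Actn3 (1.503), an actin cross-linker of fast fibers. The lowest was the calcium buffer Pvalb (-0.49, and from -0.81 to -0.12 with 1 mouse left out). Of 8 genes of type IIB fibers, 3 were above 0 and 5 below (median -0.18); Pvalb was the most abundant, Actn3 had the highest fold change and Mylk4 the lowest (-1.19), with its groups apart. With 1 mouse left out, 4 to 11 of the 15 slow, 2 to 10 of the 16 fast and 2 to 4 of the 8 type IIB genes were above 0. The medians then ran from -0.093 to 0.12 for the slow, from -0.16 to 0.072 for the fast and from -0.22 to -0.065 for the type IIB genes. Of these genes 0 were called by edgeR or limma voom, and DESeq2 called 1, Mylk4, whose adjusted p ranged from 0.00547 to 0.998 over the alternatives. In edgeR 1 of the slow, 1 of the fast and 2 of the type IIB genes had an unadjusted p under 0.05, beside 821 of all 12828 genes tested, of which 12.7% had groups apart. The fast and type IIB lists share Myh4, Pvalb, Mybpc2 and Actn3, so they are not separate, and Actn3 is counted in both.

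Markers of other cells in the soleus were summed per mouse, to be set beside the troponins and tropomyosins of the same libraries. Fibroblast markers (7 of 7 tested, most abundant Dcn) summed to 896, 2538 and 2862 TPM in WT and 1887, 1179 and 1173 TPM in LSD1-mKO, and 7 of 7 had a log2 fold change below 0, with a median of -0.95, the highest -0.04 for Dcn and the lowest -1.42 for Postn. With 1 mouse left out, 5 to 7 of them were below 0 with a median of -1.60 to -0.47; Dcn ran from -0.30 to 0.13, above 0 without WT mouse 2, WT mouse 3 or LSD1-mKO mouse 3, and Postn from -2.12 to -1.14. Immune markers (6 of 6 tested, most abundant C1qa) summed to 75.4, 246 and 196 TPM in WT and 151, 78.6 and 114 TPM in LSD1-mKO, and 6 of 6 were below 0, with a median of -0.57, from -0.45 for C1qb to -0.88 for Adgre1. With 1 mouse left out, 4 to 6 of them were below 0 with a median of -0.96 to -0.26, and C1qb ran from -0.74 to -0.19 and Adgre1 from -1.29 to -0.38, both nearest 0 without WT mouse 2. WT mouse 1, with the highest CPM of Tnni2, Tnnt3, Tnnc2, Tpm1 and Tpm2, had the lowest sums of both lists, and the part of this in the levels of the 9 genes was not tested. Red blood cell markers (5 of 5 tested, most abundant Hba-a2) summed to 705, 2198 and 839.8 TPM in WT and 987, 1016 and 1454 TPM in LSD1-mKO. They were highest in WT mouse 2, the mouse with the lowest CPM of 6 of the 9 genes, and their part was not tested either. With all mice, 1 of these 5 genes was above 0 and 4 were below, with a median of -0.03. The median ran from -0.43 to 0.59 with 1 mouse left out. Hba-a2 had the lowest log2 fold change (-0.58, and 0.013 without WT mouse 2, where 5 of 5 were above 0). Hba-a1, with the highest, ranged from 0 CPM in WT mouse 3 to 202 CPM in LSD1-mKO mouse 3.

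Further marker lists are given by their range over the 6 mice and by their median log2 fold change with all mice and with 1 mouse left out. Endothelial markers (6 tested, most abundant Pecam1) summed to 247 to 413 TPM, with a median of -0.06 that ran from -0.17 to 0.061. Adipocyte markers (7 tested) summed to 4209 to 6028 TPM, with a median of 0.08 that ran from -0.072 to 0.17. Their most abundant, Car3, is also expressed by muscle fibers and made up 2992 to 4739.7 TPM of this sum. The other adipocyte markers summed to 1175, 1460.2 and 1470.4 TPM in WT and 1426, 1288 and 1217 TPM in LSD1-mKO, a split made after the data were seen. Satellite cell markers (3 of 4 tested, most abundant Chodl) summed to 26.2 to 46.4 TPM, with a median of 0.18 that ran from 0.0067 to 0.35. Of the 3 tested, 2 were above 0 and 1 was below. The 1 below was Chodl itself, at -0.45, which ran from -0.65 to -0.25. Smooth muscle markers (6 of 7 tested, most abundant Synpo2) summed to 421 to 484 TPM, with a median of -0.0037 that ran from -0.13 to 0.16. Synpo2, with a log2 fold change of -0.16, made up 155 to 192 TPM of this sum. Its groups were apart, the only ones of the 6 (16.7%, beside 12.7% of all genes tested). Embryonic and regeneration genes (7 of 8 tested, most abundant Myh3) summed to 103 to 233 TPM, with a median of -0.03 that ran from -0.45 to 0.020.

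In all of these marker lists the summed levels of WT and LSD1-mKO overlapped. Their genes called by edgeR, DESeq2 or limma voom numbered 0, as among the 9 troponin and tropomyosin genes, and an unadjusted p under 0.05 in edgeR was found for 1 gene each of the fibroblast, red blood cell, satellite cell and embryonic lists, beside 821 of all 12828 genes tested. In the same mice the 4 slow genes summed to 21960.2, 20382 and 22034 TPM in WT and 24028, 27886 and 20514 TPM in LSD1-mKO, and the 4 fast genes to 59606, 50657 and 53865 TPM in WT and 59853, 48599 and 54663 TPM in LSD1-mKO. LSD1-mKO mouse 2 had the highest slow and the lowest fast sum, and its fibroblast, immune and red blood cell sums, and its adipocyte sum without Car3, lay within the range of the other mice. Its adipocyte sum with Car3, 6028 TPM, was the highest of the 6 mice, as was its Car3, 4739.7 TPM. The sum of another marker list, not described here, was also highest in LSD1-mKO mouse 2.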

How the data were processed

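Poly(A) RNA of 6 soleus muscles was measured. The authors deposited estimated counts per gene, not normalized; at most 9.938% of the values in a library are not whole. The submitters' processing notes name STAR, mm10 and DESeq2; the counting tool and annotation are not given in the sources used here. The authors' DESeq2 table of fold changes and p-values was not used. Columns headed 1 to 3 are WT and 4 to 6 LSD1-mKO. Counts were rounded and tested with edgeR 4.0.16 in R 4.3.3 (TMM, filterByExpr, quasi-likelihood, Benjamini-Hochberg over 12828 genes, threshold 0.05). Ratios were compared by the exact permutation test. For TPM, lengths were those of the longest protein-coding transcript (GENCODE vM21). Alternatives were DESeq2 1.42.0, limma voom 3.58.1, other scalings and filters, a replicate block and each mouse left out. Named are the 9 genes, other troponins and tropomyosins, Kdm1a, Esrrg, genes past the threshold, the genes of the slow to fast ratios, the 5 genes most like each troponin profile and, in each list described, the most abundant gene and, for the thin filament, fiber, fibroblast, immune and red blood cell lists, those with the highest and lowest fold change (those of the other lists were left out after their values were seen); genes whose groups did not overlap were added after their values were seen. The members and lists were chosen with earlier results of these data known.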

Additional observations from a re-analysis of the deposited data

How the results depend on the processing

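Over 126 refits of the 9 genes the log2 fold change kept its direction in 116 and turned in 10, with 0 past the threshold and adjusted p from 0.318 to 1.00 (edgeR, DESeq2 or limma voom). The 10 were Tnnc2 with the upper quartile (-0.000164) and library size only (-0.010), and fits that left out 1 mouse. Over those fits the range was -0.22 to 0.054 for Tnni2, -0.036 to 0.20 for Tnnt3, -0.077 to 0.13 for Tnnc2, -0.24 to 0.013 for Tpm1 and -0.061 to 0.16 for Tpm2. With 1 mouse left out, the log2 difference of the slow to fast ratio ranged from -0.087 to 0.21 for troponin T and from -0.052 to 0.26 for troponin C, below 0 only without LSD1-mKO mouse 2; the other pairs stayed above 0. The cause was not tested. The number of genes past the threshold was 2 with edgeR, 42 with DESeq2, 3 with limma voom, 11 with no filter on low counts, 1 with a replicate block and 1 to 3 with 1 mouse left out. Mice that share a replicate number were not paired: across genes their deviations had correlations of -0.352, -0.107 and -0.15. With the replicate block the Tpm3 log2 fold change was 0.22, and Kdm1a (adjusted p = 0.299, edgeR) was not called. Adding Tpm3-rs7 to Tpm3 was not run, since the table does not list it. The Tpm3 share of tropomyosin and its alternatives, the list values without 1 mouse and the adipocyte sum without Car3 were chosen after seeing the data. The smallest count of the 9 genes was 15315, and the part of sequencing depth was not tested.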
